A study of Homo sapiens with 8 samples.

Results

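The collagen genes on the promoter arrays were taken as every gene whose symbol is COL, a number, A and a number, read from the probe annotation of the arrays. This gave 39 of 17132 gene symbols and 1376 of 474411 probes, of which 1374 remained after probes marked as outliers were removed. The chromatin came from A549 cells, an established human line with features of the alveolar epithelium of the lung that was started from a carcinoma, so all values describe a single transformed line. The cells were either left unstimulated (basal level) or treated with 2 ng/ml TGFβ1. The treatment lasted up to 2 h according to the sample labels, with a shorter time given in the results of the paper, so the time behind these arrays is uncertain. There were 2 replicates of each condition, which the sample titles only number. The probe set was split over 2 slides, so that 8 arrays were analysed here. The methods of the study mention more array replicates and another array format than these arrays, and only these were analysed here. On every array, DNA precipitated with an antibody to SMAD3 (SMAD3 IP, Cy5) was compared with DNA of a mock precipitation (mock IP, Cy3; named as anti-FLAG in the labels, and as control IgG in their protocol) after amplification by PCR.

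Collagens are triple-helical proteins of the extracellular matrix. Fibrillar collagens form the cable-like fibrils of connective tissue, type IV collagens form the sheet-like network of basement membranes, type VI forms beaded filaments, and type VII forms the fibrils that anchor epithelia to the matrix below. TGFβ1 signals through its receptors to SMAD2 and SMAD3, which enter the nucleus with SMAD4 and bind DNA with other factors, and several collagen genes are textbook targets of this pathway. Chromatin immunoprecipitation followed by array hybridisation reports which DNA is enriched over the mock IP, and it does not report the level of any transcript.

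The value given for a promoter is the mean log2 ratio of SMAD3 IP over mock IP over its probes in a window that begins 2000 bp before the annotated start and ends 800 bp after it, with each array centred on its own median. A ratio of 0 therefore stands for the median probe of an array. Of the 39 genes, 38 had at least 3 probes in this window (4 to 27 probes), and COL14A1 (chromosome 8) had none there, since its 23 probes lay 121186 to 127946 bp downstream of the start. The genes were spread over 17 chromosomes. COL4A6, COL9A1 and COL18A1 each had 2 annotated starts, 1046, 19862 and 50327 bp apart, and probes of both starts were put together. The value of such a gene is therefore a mean over 2 places, and a probe distance is counted from 1 of its 2 starts. Of the 501 probes in these windows, 253 (50.5%) were well above background in both channels on every array, compared with 46.8% of the promoter probes of all genes. In COL3A1 and COL17A1 none were. The SD between the replicates of a condition ranged from 0.0018 to 0.98 on the log2 scale, with a median of 0.12. Across the 38 promoters, Pearson's r was 0.97 between the unstimulated replicates and 0.94 between the stimulated ones, whereas it was 0.39 to 0.41 between replicates of different conditions. These correlations are across genes, which are not independent.

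To examine the change of SMAD3 binding after TGFβ1, the log2 ratio of each promoter was compared between conditions with limma, with Benjamini-Hochberg adjustment over all 16302 promoters. After stimulation 8 collagen promoters were higher and 9 were lower, and 21 did not pass. Among all promoters, 47.7% passed (20.3% higher and 27.5% lower), so the collagen genes, with 44.7%, lay near the background. The median change of the 38 genes was -0.07 on the log2 scale, beside -0.06 for all genes. The 2 conditions did not overlap at 26 of the 38 promoters, which held for 74.8% of all promoters. The promoters that fell most were those of the basement membrane genes COL4A4, COL4A2 and COL4A3, by 11.1-fold, 9.89-fold and 6.34-fold. The largest rises, at COL6A1 and COL19A1, were 0.90 and 0.88 on the log2 scale.

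**Figure D1:**
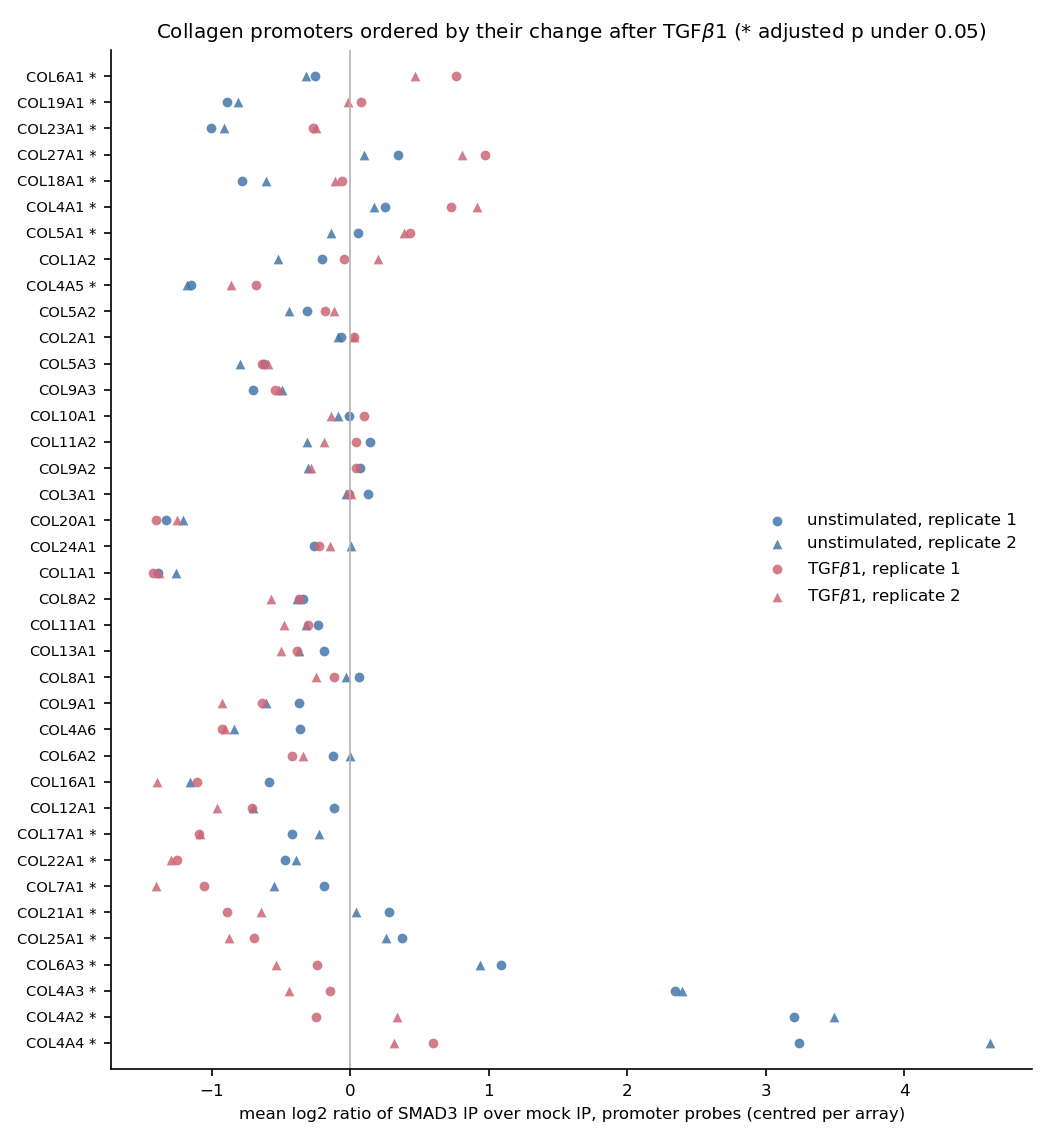
Each row is a collagen promoter, ordered by its change, and the x axis gives its mean log2 ratio of SMAD3 IP over mock IP in each replicate (blue, unstimulated; red, after TGFβ1; circles and triangles, replicates 1 and 2). Asterisks mark promoters with a limma adjusted p under 0.05. The unstimulated values of COL4A4, COL4A2 and COL4A3 lie between 2.34 and 4.62, above every other value in the plot.

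The count depended on how probes were summarised. With the median over probes in place of the mean, 4 of 38 collagen promoters passed, all lower, of which 3 were among the 17, beside 11% of all promoters. With the normexp background correction 8 passed, 4 in each direction, of which 7 were among the 17, beside 10.2% of all promoters. Of the 17 calls, that of COL4A3 held under all 14 alternatives, those of COL4A2, COL19A1, COL22A1 and COL25A1 under 13, those of COL4A4 and COL18A1 under 12, those of COL21A1, COL23A1 and COL27A1 under 11, that of COL6A1 under 10, those of COL4A1 and COL7A1 under 9, that of COL5A1 under 8 and that of COL4A5 under 4. The call of COL6A3 held under 11 of 13 and that of COL17A1 under 8 of 12. Some alternatives left the change itself as it was, so that only its test could differ. These were the replicate block and the slides fitted separately, and for COL4A2, COL4A3 and COL4A4 also both restrictions to probes well above background.

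Among the 11 fibrillar collagens, COL5A1 and COL27A1 were higher after stimulation and no gene was lower, with a median change of 0.09. COL1A1 and COL1A2 (chromosomes 17 and 7) encode the chains of type I collagen, and COL3A1 (chromosome 2) encodes type III, which accompanies it in fibrils. The promoter of COL1A1 was at -1.39 and -1.26 in the unstimulated replicates and at -1.42 and -1.38 after TGFβ1. It was thus low in all 4 replicates, and its change was -0.08 (standard error 0.13, limma adjusted p 0.680). COL1A2 was at -0.20 and -0.53 before and at -0.04 and 0.20 after stimulation. The conditions did not overlap there, but the change of 0.44 (standard error 0.16) missed the threshold with a limma adjusted p of 0.0566. Under 9 of 14 alternative settings it passed, and its change ranged from 0.20 to 1.33 over the 14. COL3A1 was at 0.13 and -0.03 before and at -0.01 and 0.01 after stimulation, and none of its 14 promoter probes was well above background in both channels on every array. Its difference was -0.05 (standard error 0.14, limma adjusted p 0.806).

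Single probes of the type I genes passed the test even where the promoter mean did not. At the probe 595 bp downstream of the COL1A1 start, the log2 ratio was -3.56 and -3.07 before and 3.22 and 3.36 after stimulation, a change of 6.60 (standard error 0.22, limma adjusted p 0.00244 over all probes). The SMAD3 IP signal at this probe went from 7.78 and 8.11 to 5.34 and 5.96 on the log2 scale relative to the array median, while the mock IP signal went from 10.77 and 10.49 to 1.55 and 1.78. The mock IP signal was thus high only at the basal level. In COL1A2, adjacent probes at -159, 8 and 137 bp rose by 1.45, 3.62 and 3.19, with limma adjusted p values of 0.0244, 0.00840 and 0.00802. All 3 probes were well above background on every array, and at 8 bp the mock IP signal was again higher at the basal level, going from 7.50 and 9.09 to 3.49 and 3.27.

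**Figure D2:**
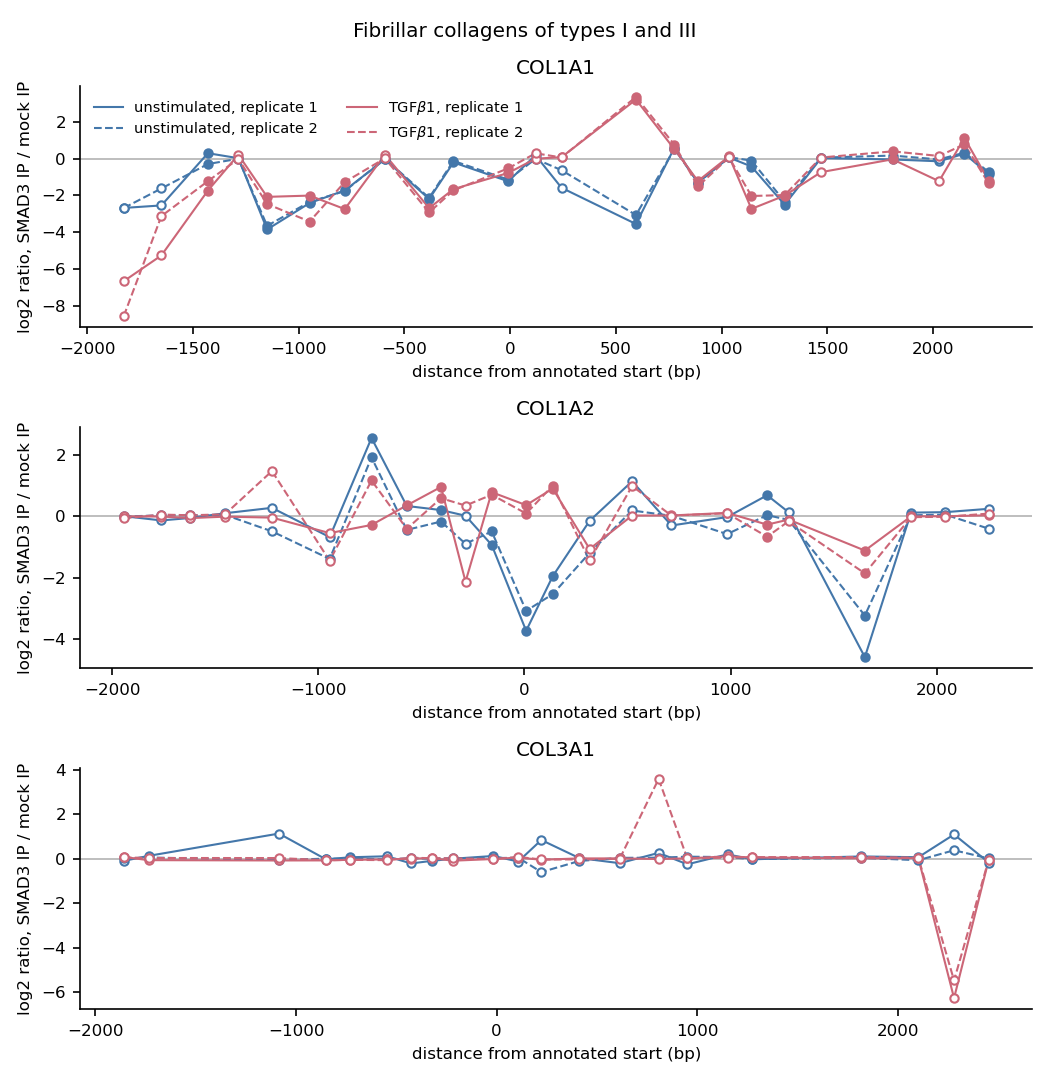
Log2 ratio of SMAD3 IP over mock IP of each probe against its distance from the annotated start in bp for COL1A1, COL1A2 and COL3A1 (lines, replicates; filled points, probes well above background in both channels on every array; open points, all other probes). The conditions part at 595 bp in COL1A1 and between -159 and 137 bp in COL1A2, and the points of COL3A1 are all open.

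Type V and XXVII collagens also belong to the fibrillar group. COL5A1 (chromosome 9), whose product helps to start fibrils, was at 0.06 and -0.14 before and at 0.43 and 0.39 after stimulation, a change of 0.45 (standard error 0.14, limma adjusted p 0.0295). Its probe at 276 bp was at 0.54 and 0.35 before and at 3.72 and 3.43 after TGFβ1. There the SMAD3 IP signal rose from 4.46 and 5.36 to 8.93 and 9.01 and the mock IP signal was 3.73 and 4.89 before and 5.19 and 5.50 after. The call at the COL5A1 promoter was lost without unstimulated replicate 2, stimulated replicate 1 or stimulated replicate 2, and its limma adjusted p ranged from 0.00161 to 0.603 over the 14 alternatives. COL27A1 (chromosome 9) was at 0.34 and 0.10 before and at 0.97 and 0.81 after stimulation, a change of 0.67 (standard error 0.15, limma adjusted p 0.00685). Its probe at 598 bp rose by 6.06, with a mean SMAD3 IP signal of 4.90 before and 8.12 after, and a mean mock IP signal of 5.76 before and 3.03 after. When all probes annotated to COL27A1 were used, the change was -0.57 and still passed the threshold, so the direction depended on the window, and the call was lost without stimulated replicate 1 (limma adjusted p 0.0618).

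The 9 network-forming collagens held the strongest changes of the group, with 2 promoters higher and 3 lower and a median change of -0.20. The type IV genes lie in head-to-head pairs that share a bidirectional promoter. COL4A3 and COL4A4 (chromosome 2) encode chains of the glomerular and alveolar basement membrane, and COL4A1 and COL4A2 (chromosome 13) encode the chains found in nearly all basement membranes. On the arrays the nearest probes of COL4A3 and COL4A4 had their centres 124 bp apart, and those of COL4A1 and COL4A2 226 bp apart.

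Shown here are the RefSeq promoter sequences of the genes that fell most, and that of COL7A1, the anchoring fibril gene known as a SMAD target. They run from 250 bases before to 50 after the RefSeq start (GRCh38.p14). This start need not be the annotated start of the arrays, from which probe distances are counted. The RefSeq starts of COL4A3 and COL4A4 lay 419 bp apart. Their nearest probes, at 45 and 74 bp on the arrays, had centres 124 bp apart. Probe distances therefore cannot be placed on these letters. Capitals mark matches on either strand to CAGAC, which contains the AGAC of the SMAD box, and to GGCGC, a GC-rich element that SMAD proteins can bind.
COL4A4 (chr2:227164156-227164455, minus strand): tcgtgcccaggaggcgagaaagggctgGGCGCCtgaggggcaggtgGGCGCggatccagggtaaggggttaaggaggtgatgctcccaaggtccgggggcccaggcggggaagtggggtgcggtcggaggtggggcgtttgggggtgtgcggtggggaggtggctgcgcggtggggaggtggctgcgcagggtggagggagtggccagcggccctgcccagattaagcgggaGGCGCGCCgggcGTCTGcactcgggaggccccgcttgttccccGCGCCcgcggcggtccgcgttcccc
COL4A3 (chr2:227164374-227164673, plus strand): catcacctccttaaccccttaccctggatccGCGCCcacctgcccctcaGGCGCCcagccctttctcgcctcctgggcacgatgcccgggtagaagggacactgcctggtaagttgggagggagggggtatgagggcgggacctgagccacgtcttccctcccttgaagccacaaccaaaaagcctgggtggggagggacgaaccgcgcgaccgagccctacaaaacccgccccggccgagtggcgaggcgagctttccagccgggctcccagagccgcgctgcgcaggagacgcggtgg
COL4A2 (chr13:110307034-110307333, plus strand): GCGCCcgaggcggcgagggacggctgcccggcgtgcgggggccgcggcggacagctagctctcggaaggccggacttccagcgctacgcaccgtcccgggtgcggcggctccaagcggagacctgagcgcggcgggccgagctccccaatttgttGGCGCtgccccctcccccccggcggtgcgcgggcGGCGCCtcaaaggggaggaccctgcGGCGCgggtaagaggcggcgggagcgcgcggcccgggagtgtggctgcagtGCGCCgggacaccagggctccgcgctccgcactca
COL7A1 (chr3:48595280-48595579, minus strand): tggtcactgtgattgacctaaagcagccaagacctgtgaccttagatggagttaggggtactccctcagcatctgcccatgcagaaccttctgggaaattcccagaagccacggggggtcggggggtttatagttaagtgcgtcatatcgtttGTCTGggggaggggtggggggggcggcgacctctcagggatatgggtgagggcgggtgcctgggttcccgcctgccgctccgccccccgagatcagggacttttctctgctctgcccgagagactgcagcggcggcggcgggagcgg

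Counted on both strands, with overlapping matches counted separately, GGCGC occurred 6 times in the COL4A4 sequence, 3 times in that of COL4A3 and 6 times in that of COL4A2, and not in that of COL7A1. The COL4A4 and COL4A3 sequences overlap, and the 3 matches of COL4A3 lie in the overlap, so these sites are counted for both genes. CAGAC occurred 1 time each in COL4A4 and COL7A1. RefSeq sequences were matched for 28 of the 39 genes, with 40 promoters in all, and none for COL1A1, COL1A2, COL2A1, COL3A1, COL5A2, COL6A1, COL8A1, COL9A3, COL14A1, COL20A1 and COL22A1. The palindromic SMAD box GTCTAGAC was found in none of the 40 promoters and in 0.202% of all 35116 promoters of the same length. CAGAC was found in 16 of the 40 (40.0%, beside 45.3% of all promoters), and GGCGC in 21 (52.5%, beside 48.6%). The shares of the collagen promoters thus lay near those of all promoters, and a match of these letters is not evidence of binding. Some of the 40 sequences overlap, such as those of COL4A1 and COL4A2 and those of COL5A1, so they are not independent.

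COL4A4 had a promoter log2 ratio of 3.24 and 4.62 in the unstimulated replicates and of 0.60 and 0.31 after TGFβ1. Both unstimulated values lay far above both stimulated ones, and the change was -3.47 (standard error 0.38, limma adjusted p 0.000157). COL4A3 was at 2.34 and 2.39 before and at -0.15 and -0.44 after stimulation, a change of -2.66 (standard error 0.15, limma adjusted p 5.18e-06). COL4A2 was at 3.20 and 3.49 before and at -0.25 and 0.33 after stimulation, a change of -3.31 (standard error 0.21, limma adjusted p 9.19e-06). In these 3 genes the basal promoter was enriched in the SMAD3 IP, and after stimulation COL4A2 and COL4A4 no longer differed from 0 beyond the error (limma adjusted p 0.832 and 0.175). A called change of over 2 on the log2 scale was found at 5.12% of all promoters. The fall of COL4A3 passed the threshold under all 14 alternatives. That of COL4A2 was lost with the normexp correction, where the change was -1.43 (limma adjusted p 0.264), and that of COL4A4 was lost with normexp and with the median over probes.

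The fall lay in probes close to the starts. In COL4A3 the probe at 45 bp had a log2 ratio of 6.70 and 6.80 before and of 1.34 and 0.88 after stimulation, a change of -5.64 (standard error 0.21, limma adjusted p 0.00268). Its SMAD3 IP signal went from 12.02 and 13.56 to 6.76 and 6.57, whereas its mock IP signal was 5.13 and 6.64 before and 5.41 and 5.61 after. The next probe, at 268 bp, dropped by 4.81, and those at 426 and 535 bp had differences of -0.38 and 0.18 that did not pass.
In COL4A4 the probes at 74 and 344 bp dropped by 6.89 and 6.41 (limma adjusted p 0.0115 and 0.00219). At 344 bp both channels moved, the SMAD3 IP signal from 13.49 and 14.35 to 9.20 and 9.22 and the mock IP signal from 5.94 and 7.26 to 8.39 and 8.43. Between these probes, the one at 174 bp was at 3.63 and 9.08 in the unstimulated replicates, and with this spread its change of -6.50 did not pass (limma adjusted p 0.164). Further in, the probe at 503 bp stayed enriched, at 1.85 and 1.83 before and at 2.46 and 2.07 after stimulation, and the probe at 710 bp rose by 2.00.
In COL4A2 the probes at 327 and 505 bp dropped by 6.39 and 5.76 (limma adjusted p 0.00304 and 0.00244). The SMAD3 IP signal at 505 bp went from 9.10 and 8.86 to 3.96 and 4.92, and the mock IP signal from 2.54 and 2.59 to 3.42 and 4.02. The probe at 204 bp was at 3.23 and 3.40 before and at 2.74 and 3.17 after TGFβ1, so it was enriched in both conditions, and its change of -0.36 did not pass. All of these probes were well above background in both channels on every array.

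**Figure D3:**
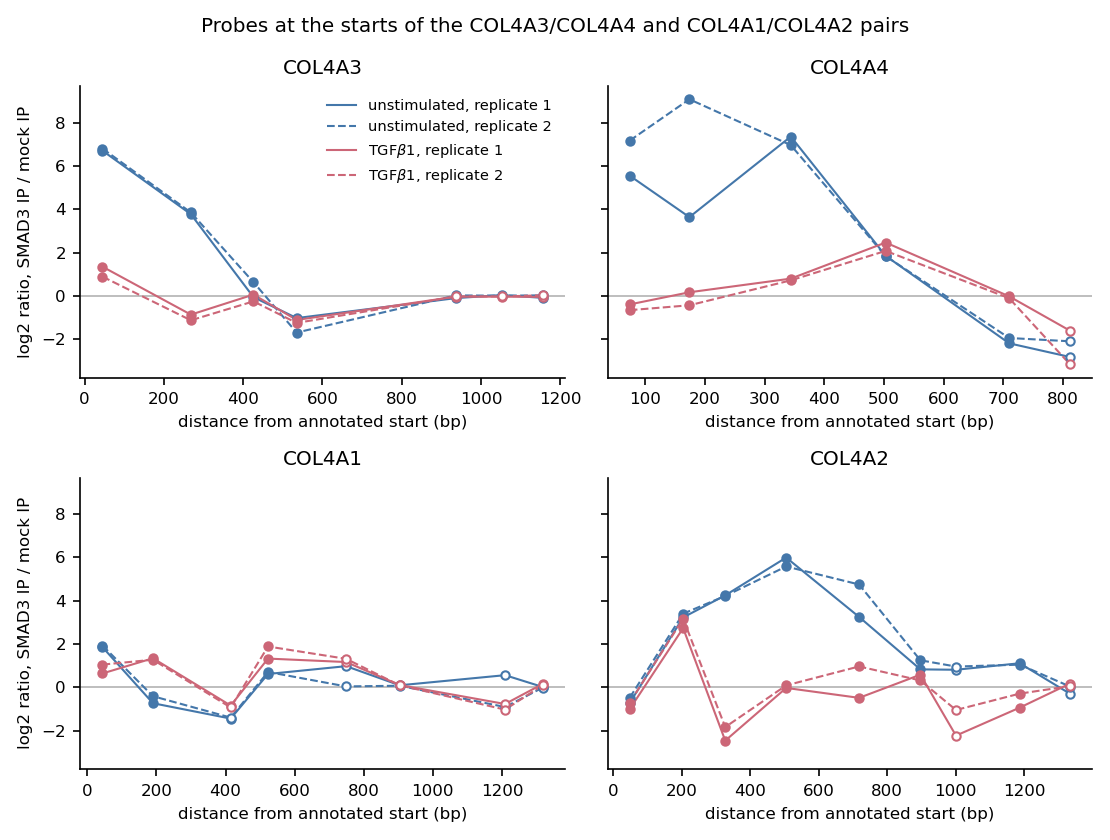
Log2 ratio of SMAD3 IP over mock IP against the distance from the annotated start in bp for both type IV pairs (lines, replicates; filled points, probes well above background in both channels on every array; open points, all other probes). The unstimulated and stimulated lines part at 45 and 268 bp in COL4A3, at 74 to 344 bp in COL4A4 and at 327 to 718 bp in COL4A2, and in COL4A1 the stimulated lines are the lower ones at 44 bp and the higher ones at 190 bp.

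COL4A1, which faces COL4A2, went the other way. Its promoter was at 0.25 and 0.17 before and at 0.73 and 0.92 after stimulation, a change of 0.61 (standard error 0.14, limma adjusted p 0.00789), and the mock IP signal of these probes fell by 1.49 (standard error 0.20, limma adjusted p 0.0237). At its 44 bp probe the ratio was 1.86 and 1.93 before and 0.64 and 1.05 after, and this probe fell, with a limma adjusted p of 0.0439. The call at the COL4A1 promoter was lost within 500 bp of the start, with all probes of the gene (change 0.058), with normexp, with the median over probes and without stimulated replicate 2 (change 0.51, limma adjusted p 0.0511). COL4A5 and COL4A6 (chromosome X), the remaining pair, shared 3 probes of a divergent promoter. COL4A5 was at -1.15 and -1.18 before and at -0.68 and -0.86 after stimulation (change 0.39, standard error 0.14, limma adjusted p 0.0462). This call lay at the threshold and was lost or reversed under 10 of 14 alternatives. COL4A6 was at -0.37 and -0.84 before and at -0.93 and -0.90 after, with a change of -0.31 (limma adjusted p 0.187). COL8A1, COL8A2 and COL10A1, which form short-chain networks, had differences of -0.20, -0.11 and 0.03 that did not pass.

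The beaded filament genes COL6A1, COL6A2 (both chromosome 21) and COL6A3 (chromosome 2) encode the 3 chains of the classical type VI collagen, and their promoters moved in different directions. COL6A3 was at 1.09 and 0.94 before and at -0.24 and -0.54 after TGFβ1, a change of -1.40 (standard error 0.15, limma adjusted p 0.000172). Within 500 bp of the start it did not pass, and the difference of the median over probes was 0.02. The called stretch lay far upstream, in 4 adjacent probes of COL6A3 from -1989 to -1446 bp. At -1617 bp the ratio was 9.87 and 7.83 before and 1.40 and -1.34 after stimulation (limma adjusted p 0.0309), and the SMAD3 IP signal went from 11.92 and 13.25 to 1.30 and 0.09. The mock IP signal at this probe went from 1.86 and 5.30 to -0.11 and 1.35, and it was well above background on 1 of the 2 stimulated arrays. At the neighbouring probe (-1866 bp) and at -1989 bp neither channel was well above background after stimulation.
COL6A1 was at -0.26 and -0.32 before and at 0.76 and 0.47 after TGFβ1, a change of 0.90 (standard error 0.15, limma adjusted p 0.00154). Its probe at 571 bp was at -3.68 and -3.35 before and at 4.60 and 3.79 after. There the SMAD3 IP signal went from 3.56 and 3.73 to 5.51 and 6.42 and the mock IP signal from 6.68 and 6.39 to 0.33 and 1.81. Within 500 bp of the start the COL6A1 change was -0.07 and did not pass. COL6A2 was at -0.13 and -0.0032 before and at -0.42 and -0.34 after (change -0.32, limma adjusted p 0.0877). Its probe at 1023 bp, outside the window, was at 5.21 and 5.25 before and at -2.08 and -1.42 after stimulation, a change of -6.98 (standard error 0.28, limma adjusted p 0.00289), with the SMAD3 IP signal at 8.37 and 8.87 before and at 0.47 and 1.57 after.

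COL7A1 (chromosome 3), the gene of the anchoring fibrils below epithelia, is among the genes known to respond to TGFβ1 through SMAD3. Its promoter ratio was -0.19 and -0.55 in the unstimulated replicates and -1.06 and -1.40 after stimulation. All 4 values were below the array median and the stimulated values were lower, with a change of -0.86 (standard error 0.18, limma adjusted p 0.00497). The SMAD3 IP signal of its 18 promoter probes differed by 0.47 between conditions (standard error 0.45) and the mock IP signal by 1.45 (standard error 0.63), neither of which passed. The call was lost without stimulated replicate 2 (limma adjusted p 0.0651), with all probes of the gene (change -0.07), within 500 bp of the start (change -0.01), with normexp (change -0.19) and with the median over probes (change -0.87, limma adjusted p 0.0906). The probes with the largest shifts were outside the promoter window. At 1445, 1615 and 1764 bp the ratio rose by 7.29, 8.06 and 4.03 (limma adjusted p 0.0190, 0.00211 and 0.0258). At 1615 bp the SMAD3 IP signal was 4.82 and 7.08 before and 6.16 and 6.53 after stimulation, while the mock IP signal went from 10.32 and 12.16 to 3.57 and 3.81. The reverse was found far downstream of the start, where 9 adjacent probes from 29921 to 31126 bp fell, with a median change of -3.18. Whether these distant probes also lie near the start of another gene is not given here. The mean SMAD3 IP signal of these 9 probes was 3.53 before and 3.63 after, and the mean mock IP signal was 4.43 before and 8.44 after. All probes of both stretches were well above background in both channels on every array. The plot of COL7A1 shows that the stretches differ between conditions in the mock IP channel.

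**Figure D4:**
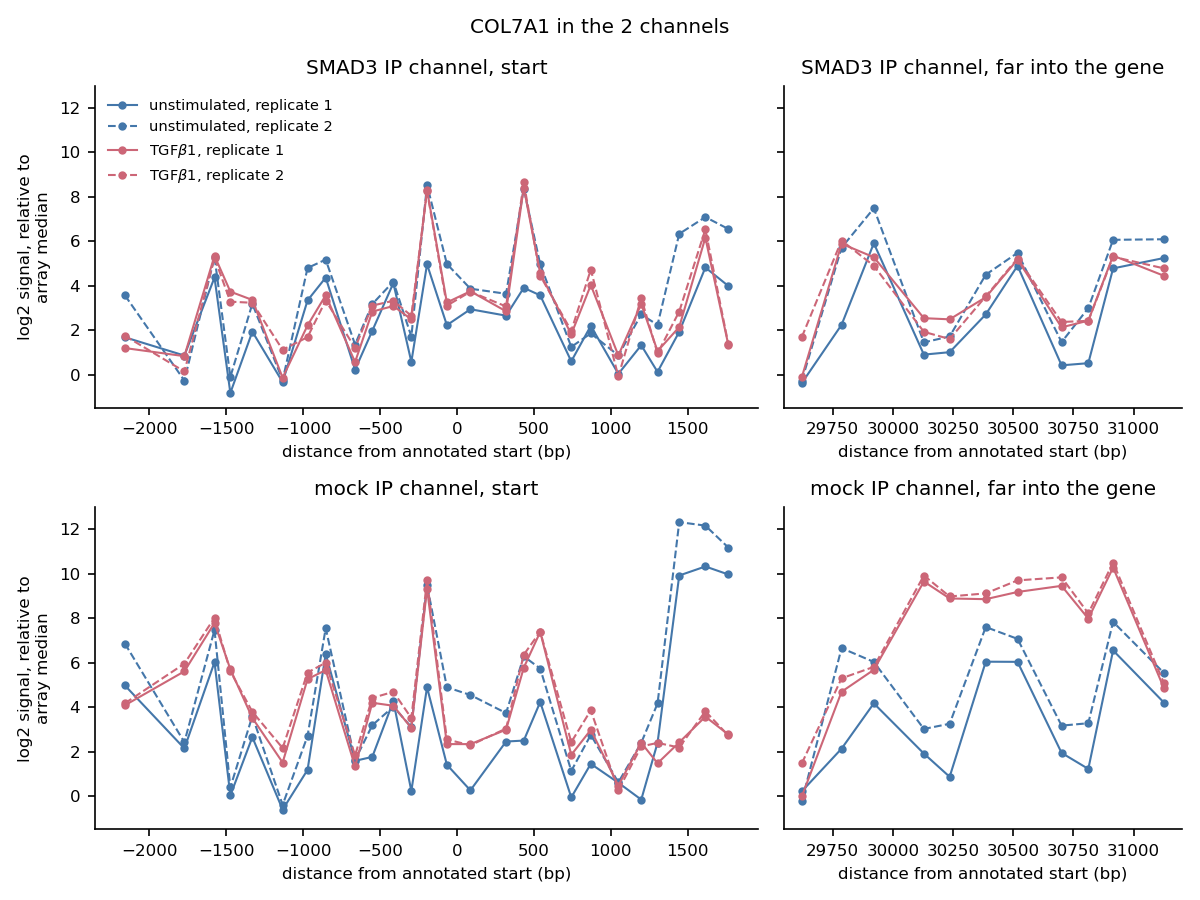
Log2 signal relative to the array median of the SMAD3 IP (top) and the mock IP (bottom) for COL7A1 probes, against the distance from the annotated start in bp (lines, replicates; blue, unstimulated; red, after TGFβ1). At 1445 to 1764 bp the unstimulated mock IP signal is 9.92 to 12.32 and the stimulated one 2.19 to 3.81, and from 30129 to 30915 bp both stimulated mock IP values are above both unstimulated ones.

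Of the 9 FACIT collagens with promoter values, which decorate the surface of fibrils, COL19A1 was higher and COL21A1 and COL22A1 were lower, with a median change of -0.30. COL19A1 (chromosome 6) was at -0.89 and -0.81 before and at 0.08 and -0.01 after TGFβ1, a change of 0.88 (standard error 0.13, limma adjusted p 0.000959). Its probes at 489, 654 and 758 bp rose by 3.43, 5.32 and 5.74, and at 654 bp the mock IP signal went from 8.60 and 9.84 to 3.19 and 3.47 with the SMAD3 IP signal at 3.71 and 4.68 before and at 3.68 and 3.34 after. The median over the COL19A1 probes did not pass.
COL21A1 (chromosome 6) was at 0.28 and 0.04 before and at -0.89 and -0.64 after (change -0.93, limma adjusted p 0.00164). At its 111 bp probe the mock IP signal was 1.79 and 3.90 before and 7.49 and 7.75 after stimulation, while the SMAD3 IP signal was 3.86 and 5.76 before and 5.40 and 5.75 after. COL22A1 (chromosome 8) was at -0.47 and -0.39 before and at -1.25 and -1.29 after (change -0.84, standard error 0.13, limma adjusted p 0.00115), and the mock IP signal of its promoter rose by 2.05 (limma adjusted p 0.0137). With the COL22A1 probes well above background in both channels on every array the change was -0.18 and did not pass (limma adjusted p 0.421). Upstream of the window, 3 adjacent COL22A1 probes from -2415 to -2040 bp fell with a median change of -7.94. Their mean SMAD3 IP signal was 10.7 before and 1.92 after, beside a mean mock IP signal of 4.31 and 3.48. COL9A2 and COL20A1 had the highest and the lowest ratio of the class, at 0.07, -0.31, 0.04 and -0.28 for COL9A2 and at -1.33, -1.21, -1.40 and -1.25 for COL20A1 in the order of unstimulated and stimulated replicates, and neither passed.

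The transmembrane collagens COL13A1, COL17A1, COL23A1 and COL25A1 are anchored in the cell membrane, with COL17A1 in the hemidesmosomes of epithelia. COL25A1 (chromosome 4) fell from 0.37 and 0.25 to -0.69 and -0.87 (change -1.10, standard error 0.14, limma adjusted p 0.000402), and its mock IP signal rose by 2.09 (limma adjusted p 0.0439). COL17A1 (chromosome 10) fell from -0.42 and -0.23 to -1.09 and -1.09 (change -0.76, standard error 0.14, limma adjusted p 0.00246). The difference of the median over its probes was 0.06 and the change within 500 bp of the start was 0.39, neither of which passed. At its probe at -1101 bp the mock IP signal was 0.10 and -1.15 before and 7.49 and 8.98 after stimulation. COL23A1 (chromosome 5) rose from -1.01 and -0.91 to -0.27 and -0.25 (change 0.70, standard error 0.13, limma adjusted p 0.00303), a call that did not hold for probes well above background in both channels on every array. COL13A1 (chromosome 10) did not pass at the promoter, with a change of -0.16. Its probe at -1490 bp fell from 6.79 and 6.28 to -1.63 and -1.45, with the SMAD3 IP signal at 8.78 and 9.17 before and at 1.91 and 2.39 after. Upstream of it, 8 adjacent probes from -3076 to -1721 bp rose by a median of 5.04. Their mean mock IP signal was 4.70 before and -0.40 after stimulation, and only 1 of the 8 was well above background in both channels on every array. COL18A1 (chromosome 21), a multiplexin of basement membranes, was at -0.78 and -0.61 before and at -0.06 and -0.11 after (change 0.61, standard error 0.14, limma adjusted p 0.00702). This mean covers probes of 2 annotated starts 50327 bp apart, and which of them a probe distance refers to is not given here. The COL18A1 probes at -251 and 667 bp rose by 4.36 and 6.36 in different channels. At -251 bp the SMAD3 IP signal went from 5.63 and 6.13 to 9.92 and 9.95 with the mock IP signal between 6.60 and 7.15, and at 667 bp the mean mock IP signal went from 9.36 to 4.09.

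Because a ratio can move through either channel, the signals of both were compared between conditions. At COL4A2, COL4A3, COL4A4 and COL6A3 the SMAD3 IP signal differed more between conditions than the mock IP signal, by -2.80, -2.40, -3.54 and -1.71, whereas in the other 5 lower promoters (COL7A1, COL17A1, COL21A1, COL22A1 and COL25A1) the mock IP signal differed more, by 1.13 to 2.09. Of the 8 higher promoters, the SMAD3 IP signal differed more at COL5A1 and COL27A1, by 0.90 and 0.60, and the mock IP signal differed more at the remaining 6, by -1.49 to -0.37. How the called promoters of all genes divide between the channels is not given here, so this division cannot be read as particular to the collagens. The spread within a channel was larger than that of the ratio, and few single-channel changes passed. In the SMAD3 IP channel COL4A2 passed (limma adjusted p 0.0195), as did 2.53% of all promoters (0.804% higher and 1.73% lower), and in the mock IP channel COL22A1 and COL25A1 were higher and COL4A1 was lower, with 13.9% of all promoters called (6.37% higher and 7.55% lower). With the normexp correction no collagen promoter passed in either channel, and without unstimulated replicate 1 the mock IP channel had 19 calls (7 higher and 12 lower, beside 40.2% of all promoters) and without unstimulated replicate 2 it had 26 (19 higher and 7 lower, beside 61.2%).

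**Figure D5:**
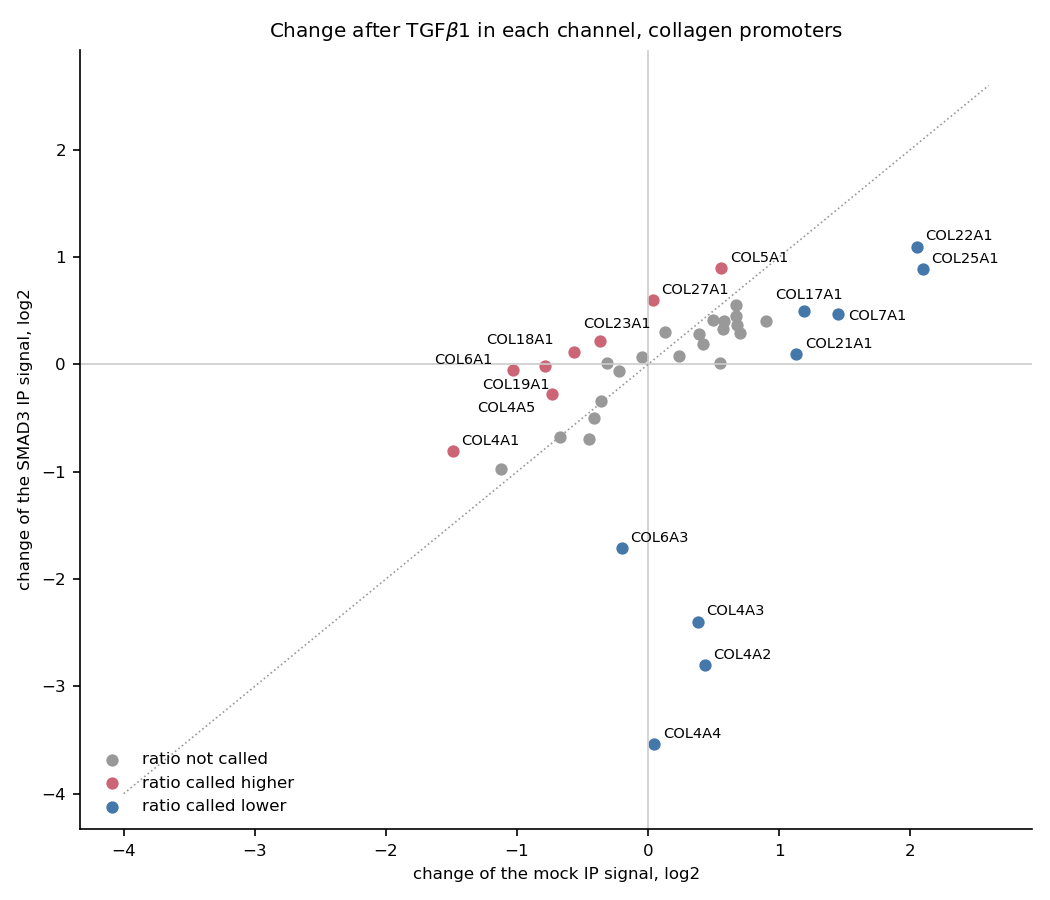
Change after TGFβ1 of the mean promoter signal in the mock IP (x axis) and in the SMAD3 IP (y axis), both log2, for the 38 collagen promoters (red, ratio called higher; blue, ratio called lower; grey, not called; dotted line, equal change in both channels). COL4A2, COL4A3, COL4A4 and COL6A3 lie low on the y axis near 0 on the x axis, and COL22A1 and COL25A1 lie farthest to the right.

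Single probes were tested over all 472988 probes to locate changes within the genes. Of the 1374 collagen probes, 152 were higher and 169 lower after stimulation (23.4%), beside 22.9% of all probes, and 227 of these 321 probes were well above background in both channels on every array. Stretches of 3 or more adjacent called probes of the same direction, at most 500 bp apart, were then listed, a criterion chosen after the values were seen. There were 15 such stretches in 11 of the 39 genes, while 27.7% of all genes held at least 1. Of these, 9 were higher, in 9 genes (COL1A2, COL4A5, COL5A3, COL7A1, COL9A3, COL13A1, COL18A1, COL19A1 and COL23A1), while 13.7% of all genes held a higher stretch. In each of the 9 the mock IP signal had the larger median difference. How often this holds among all genes is not given here. The 6 lower stretches lay in 5 genes, COL6A3, COL7A1, COL9A3 (which held 2), COL18A1 and COL22A1, while 16.8% of all genes held a lower stretch. The SMAD3 IP signal differed more in 4 of the 6.

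The change was also measured at the best-fitting peak of each gene, as the mean log2 ratio within 250 bp of a centre fitted to all 4 replicates jointly, with probes anywhere in the annotation of the gene. Of the 36 collagen genes with a joint peak, 4 were higher and 12 were lower after stimulation, and among all 15403 genes 42.1% passed (17.0% higher and 25.1% lower). The centre was fitted to the same values, and 6 of the 16 called peaks rested on 1 probe, 5 had no probe well above background in both channels on every array and 8 lay outside the promoter window. COL4A4, COL4A3, COL4A2 and COL6A3 fell at the joint peak as they did at the promoter, with changes of -6.60, -5.64, -5.30 and -6.48. COL14A1, which had no promoter probes, had its joint peak 126376 bp downstream of the start, on 1 probe at 8.52 and 6.31 before and at -0.86 and -2.24 after TGFβ1 (change -8.97, limma adjusted p 0.00411), and its mock IP signal there was well above background on 1 of the 2 unstimulated arrays. COL22A1, COL6A2 and COL27A1 fell by 5.24, 4.16 and 4.87 at joint peaks at -2415, 1023 and -2344 bp. COL9A3 and COL25A1 were lower at the joint peak as well (changes -1.59 and -0.68), and COL1A1, COL9A1, COL5A1 and COL4A5 were higher (changes 3.07, 2.34, 2.05 and 1.55). COL1A1 and COL9A1 rested on 1 probe each, at -4657 and 1246 bp, and COL4A5 on 3 probes around 141123 bp. None of these probes was well above background in both channels on every array. Both COL5A1 probes, around 276 bp, were. COL4A3, COL6A3 and COL22A1 kept their calls under each of the 11, 10 and 11 alternatives that gave a value. Their joint peaks rested on 1, 3 and 3 probes, of which 1, 0 and 1 were well above background in both channels on every array. The call was lost or reversed under 10 of 11 alternatives for COL25A1, 7 of 11 for COL4A1, 6 of 11 for COL6A1, 5 of 11 for COL1A1 and COL27A1, 5 of 10 for COL4A5, 4 of 10 for COL9A3, 4 of 11 for COL5A1, 3 of 11 for COL4A4 and COL9A1, 2 of 11 for COL6A2, 1 of 11 for COL4A2 and 1 of 10 for COL14A1. Without unstimulated replicate 1 or 2, the centre of the joint peak was fitted anew and the change was -1.23 and -1.07 at COL6A2 (limma adjusted p 0.0399 and 0.0521), -0.27 and 0.14 at COL27A1, 0.086 and 0.10 at COL4A5 and 0.046 and 0.68 at COL9A3. COL4A1, COL6A1 and COL27A1 were called lower at the joint peak and higher over the promoter window, at different probes. COL7A1 did not pass at its joint peak, 87 bp downstream of the start (change 0.46, standard error 0.36, limma adjusted p 0.385). COL8A1, COL11A1 and COL16A1 had no joint peak.

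Within each condition, the promoter mean was compared with 0, the array median. At the basal level 5 collagen promoters were higher than 0 and 21 were lower, and after stimulation 4 were higher and 21 lower, beside 58.8% of all promoters at the basal level (20.7% higher and 38.1% lower) and 59.0% after stimulation (16.5% higher and 42.5% lower). The 5 higher at the basal level were COL4A2, COL4A3, COL4A4, COL6A3 and COL25A1, and the 4 after stimulation were COL4A1, COL5A1, COL6A1 and COL27A1. No collagen gene was thus in both sets, and the share of all promoters in both is not given here. These calls concern means over the window, and single probes within it could be enriched in both conditions. The split depended on the scaling, since a loess fit within each array gave 13 higher and 7 lower at the basal level and 12 and 12 after stimulation, with 62.6% and 63.6% of all promoters called. The uncentred values of the series matrix gave 19 and 6, and 18 and 9, with 71.6% and 76.8% of all promoters called. COL1A1 and COL20A1 had the lowest means in both conditions.

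Genes that process collagen or bind it were listed beside the collagens. Of 34 genes of collagen biosynthesis and processing, 28 were measured, of which 3 were higher and 9 lower after stimulation, with a median change of -0.28. LEPRE1, a prolyl hydroxylase that modifies collagen chains, changed by 3.83 and LOXL4, a lysyl oxidase that cross-links collagen, by -3.38 (limma adjusted p 1.67e-06 and 2.15e-06). SERPINH1, the collagen chaperone of the endoplasmic reticulum, changed by -0.40 (limma adjusted p 0.0429), and LOX, another cross-linking enzyme, had a difference of -0.23 that did not pass (limma adjusted p 0.282). Of the 10 collagen receptor genes, 9 were measured, with ITGA2 (0.73) and DDR2 (0.57) higher, DDR1 (-0.85) and ITGA10 (-0.69) lower and a median change of -0.04. With 42.9% and 44.4% of their genes called, both lists were near the 47.7% of all promoters.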

How the data were processed

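Per the labels, DNA of the SMAD3 IP (Cy5) and of the mock IP (Cy3) of A549 cells was amplified and hybridised to Agilent promoter arrays, 8 in all. The deposited scanner files hold processed signal intensities of both channels, which the authors obtained with Agilent Feature Extraction 9.5.1.1 (background-subtracted and dye-normalised), and the deposited series matrix holds log2 ratios of the same arrays. The methods of the study name the assembly hg17 for its genomic analyses and the file headers name no build, so probe positions are printed only as distances from the annotated start, and the RefSeq sequences come from another build. No scan batch separated the groups. Control probes, probes without a mapped position and outlier-flagged probes were removed, and log2 ratios of the processed intensities were centred on the median of each array.

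Stimulated and unstimulated replicates were compared in limma 3.58.1 under R 4.3.3 (lmFit and eBayes, all 4 replicates, Benjamini-Hochberg adjustment over all features, threshold 0.05). Joint peaks were fitted with Python 3.11.15 for fragments of 200 to 700 bp and at least 4 probes. All fits were tested on simulated data. The precision is limited by the 2 replicates per condition and by the signal over background, as 50.5% of the collagen promoter probes were well above background in both channels on every array. The p-values rest on the spread between these replicates, which eBayes draws towards the spread over all features. No collagen probe was saturated.

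Named in the text were COL7A1, COL1A1, COL1A2, COL3A1, COL4A1 and COL4A2, the collagen genes called at the promoter or the joint peak up to the 24 with the largest change, and the genes with the highest and lowest promoter ratio of each structural class, 26 in all. Other genes are named to complete a class, pair or list, and single probes and stretches of probes were chosen after their values were seen. The members, lists and tests were chosen with earlier results of these data known. Alternatives covered the background correction (normexp, offset 50), loess, the series matrix values, dim probes, the window, the summary over probes, the fragment lengths, the half-width, the slides, the replicate block and each replicate left out. The restriction to probes well above background in both channels on every array was added after seeing the data. The same replicate numbers occur in both conditions, and the labels do not say that they mark pairs. Deviations of same-numbered replicates from their condition means had r = 0.109.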

Additional observations from a re-analysis of the deposited data

How the results depend on the processing

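Of the 345 alternative values for the promoter change of named genes, 272 kept their side of the threshold and, where called, their direction, as did 204 of 267 at the joint peak, and values that were not called could change sign. The fall of COL4A3 passed throughout. With the normexp correction, the number of collagen promoters called changed was 8, of those different from 0 it was 5 at the basal level and 8 after stimulation, of joint peaks 3, of probes 72, and of the mock IP and SMAD3 IP signals 0 and 0. Over all genes or probes, the shares in this order were 10.2%, 4.62%, 22.5%, 10.3% and 4.54%, and 0% for both signals. With the median over probes there were 4 changed promoters, and 8 and 11 different from 0, beside 11%, 15.6% and 17.5% of all promoters. When probes dim in both channels on any array were dropped, the SMAD3 IP signal gave 3 calls, beside 5.04% of all promoters. With the replicate block, the mock IP signal gave 1 call and the SMAD3 IP signal 4, and 20 promoters, 14 joint peaks and 257 probes were called. Over all genes or probes, the shares in this order were 6.06%, 4.51%, 51.8%, 36.1% and 18.5%. Without each replicate in turn, the counts were 13 to 18 promoters, 15 to 22 and 17 to 25 different from 0 at the basal level and after stimulation, 10 to 15 joint peaks, 140 to 194 probes, 0 to 26 for the mock IP signal (19 and 26 without unstimulated replicates 1 and 2) and 0 for the SMAD3 IP signal. The series matrix values moved the median change over all genes from -0.06 to 0.08.

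The following changes reversed, and the cause was not tested. Within 500 bp of the start, the promoter changes were COL4A5 -0.11, COL6A1 -0.070, COL9A3 -0.78 and COL17A1 0.39. With all probes of the gene they were COL1A1 0.49, COL9A3 -0.74 and COL27A1 -0.57. With the median over probes they were COL4A5 -0.14, COL6A3 0.024, COL9A3 -1.13, COL17A1 0.057 and COL23A1 -0.014. With probes well above background in both channels on every array they were COL1A1 0.49 and COL4A5 -0.39, and without probes dim in both channels COL4A5 -0.20. At the joint peak, fragments up to 1000 bp gave COL1A1 -0.20 and COL25A1 0.041, the half-width of 500 bp gave COL4A1 0.42, normexp COL4A1 0.55, and loess COL4A1 0.53 and COL19A1 1.52. Probes well above background in both channels gave COL1A1 -0.20, COL4A1 1.41, COL9A1 -0.36, COL9A3 0.36 and COL20A1 -0.99, and without probes dim in both channels COL9A1 -0.36. Leaving out each replicate in turn gave COL1A1 -0.87 to 4.00 (lowest without stimulated replicate 2), COL9A3 -1.72 to 0.68 (0.046 and 0.68 without unstimulated replicates 1 and 2), COL19A1 -0.083 to 1.56 (highest without unstimulated replicate 1) and COL27A1 -4.02 to 0.14 (highest without unstimulated replicate 2).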
